A study of Bos taurus with 129 samples.

Results

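The transcriptome of whole blood was compared between day 13 and day 0 in cattle that stayed free of bovine respiratory disease (BRD), with each animal serving as its own reference. Every animal labelled without disease that had a library on both days was used, which gave 22 libraries (17.1% of those in the series) from 11 of its 26 animals. Animals are called healthy here if the study's 60 days brought them no BRD diagnosis and no BRD treatment. These were commercial crossbred steers of unknown earlier history from 3 trace mineral groups, pooled here. Supplements held copper, cobalt, manganese and zinc. In the feed of INR animals (7, 10, 30 and 50) these were sulfates, in that of AAC animals (34, 46 and 49) amino acid complexes, and COMBO animals (3, 6, 42 and 57) ate the complexes and were also drenched with minerals ahead of shipment and again on day 0. No group went without supplement, a further AAC animal (48) was not used because it has no day 13 library, and ages were not given in the sources used here. Day 0 was the day of enrollment, shortly after long-distance transport to the research unit. A viral respiratory vaccine and the antiparasitic doramectin were given to all animals that day, and feeding of the supplements began from then. The comparison addresses what changed in the blood over the first days on the unit. Recovery from transport, the vaccine, doramectin, the supplements, growth and the time of sampling all moved with day, so they cannot be told apart.

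Cattle that are bought, hauled and kept from feed draw on body fat and secrete the glucocorticoid cortisol. Circulating fatty acids activate PPAR transcription factors, which turn on genes for the import and burning of fatty acids in mitochondria, whereas glucocorticoids act through their receptor to induce feedback regulators such as FKBP5 and TSC22D3. Synthesis of cholesterol and of unsaturated fatty acids is run by the SREBP transcription factors, which are most active when cellular sterol is low or insulin is high. Whole blood mixes neutrophils, monocytes, lymphocytes, platelets and young red cells. A lower level of a transcript in such bulk RNA can come from fewer cells of a type or from less of the transcript per cell, and these cannot be told apart here.

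The deposited values were gene-level counts, derived by the authors from read coverage. Total counts ranged from 32682014 to 51351890 on day 0 (median 44410555) and from 31613545 to 51136446 on day 13 (median 42980606), and the difference of -2119566 ± 6320639 counts (mean ± SD, n = 11 animals) did not pass an exact two-sided sign-flip permutation test (p = 0.291). Defining markers of the expected blood cells were detected, among them MMP25 of neutrophils, FCN1 of monocytes, MS4A1 of B cells, TCF7 of T cells and F13A1 of platelets and monocytes. Some libraries stood apart from the rest. COMBO 6 on day 0 held the highest level of 253 of the 586 genes called lower on day 13, and INR 50 on day 13 held the highest level of 148 of the 559 genes called higher. The scaling (TMM) factor of COMBO 6 on day 0 was 0.907, the lowest of the 22 libraries, and a lower factor gives higher scaled levels. Haemoglobin transcripts made up a larger share of the counts on day 13 in all 11 animals, with a median of 0.393% (range 0.0155% to 2.47%) against 0.0184% (0.00371% to 0.179%) on day 0 (exact two-sided sign-flip permutation test, p = 0.000977, the smallest that 11 animals allow). That share moved the same way in every animal, so it and day cannot be told apart here. With the log2 haemoglobin share as a covariate, 6 genes remained called, which were CPT1A, FCGRT, KLF11, LOC514978, PDK4 and SLC25A20, all lower. Some fitted log2 changes were of similar size though no longer called, being -3.52 without and -3.87 with the covariate for CD36, -1.72 and -1.76 for HP, and 1.10 and 0.97 for SCD. Of the genes whose tests are given here, 7 changed sign, among them HBA, HBA1 and HBM.

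In an edgeR quasi-likelihood fit with animal as a block, 1145 of 16063 tested genes (7.13%) were called at an adjusted p below 0.10 (Benjamini-Hochberg). Of these, 559 (3.48%) were higher and 586 (3.65%) lower on day 13. An unadjusted p below 0.05 was reached by 3630 (22.6%) of the tested genes. Most changes were modest, with a median log2 change of 0.41 for the higher and -0.37 for the lower calls, and a median of 0.00 over all tested genes. A change of at least 2-fold was reached by 55 of the higher and 60 of the lower calls. The direction was the same in all 11 animals for 132 of the higher and 147 of the lower calls. Levels of the 2 days did not overlap for 17 genes (0.106%), of which SCD and LSS were higher, and KLF11, FCGRT, SLC25A20, CPT1A, LOC514978, PDK4, TTC7A, LOC100297240, FCN1, C18H19orf12, CALM, CALM2, KLRJ1, CFP and CSNK1D were lower. The number of calls depended on the animals. Leaving out single animals gave between 634 calls (without COMBO 6) and 3224 (without COMBO 3), with 647 without INR 7, 649 without COMBO 42, 656 without AAC 49 and 703 without INR 50. Without both COMBO 6 and INR 50, the libraries named above, there were 382 calls, of which 347 were shared with the full set. In every one of the 11 fits that left out an animal, 238 of the higher and 252 of the lower calls stayed called. Fitted without pairing (no animal block), 464 genes were called, of which 418 were shared with the paired fit.

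Among genes of fatty acid use, PDK4, CPT1A and SLC25A20 were much lower on day 13, although most of their list, described further on, was not called. Levels are given in CPM, counts scaled to a common library total, and a log2 change is day 13 minus day 0. PDK4 encodes the pyruvate dehydrogenase kinase that spares glucose while fat is burned. Its level ran from 56.6 to 328 CPM on day 0 (median 89.7) and from 3.93 to 40.7 CPM on day 13 (median 13.95), without overlap (log2 change -2.80 ± 0.27 (SE), adjusted p = 0.000338). CPT1A, the carnitine palmitoyltransferase at the outer mitochondrial membrane and the controlling step of long-chain fatty acid oxidation, ran from 138 to 388 CPM on day 0 (median 225) and from 38.2 to 93.2 CPM on day 13 (median 65.1). It fell in all 11 animals by 1.88 on the log2 scale (SE 0.13, adjusted p = 1.69e-05). The carrier of the next step, SLC25A20, moves acylcarnitines across the inner membrane and ran from 40.8 to 56.8 CPM on day 0 (median 48.3) and from 17.1 to 33.9 CPM on day 13 (median 22.03) (log2 change -1.12 ± 0.07 (SE), adjusted p = 1.13e-05). Day 0 and day 13 were thus fully separated for PDK4, CPT1A and SLC25A20, and the highest day 0 levels of PDK4 and CPT1A were those of COMBO 6. CD36, the fatty acid translocase of the cell surface, fell from 3.05 ± 3.29 to 0.280 ± 0.354 CPM (log2 change -3.52 ± 0.41 (SE), adjusted p = 0.00151) and was lower in all 11 animals, although it was sparse and stood at 0 in 2 day 13 libraries. UCP2, a mitochondrial inner membrane carrier, fell (from 813 ± 173 to 594 ± 118.4 CPM, adjusted p = 0.0150).

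**Figure D1:**
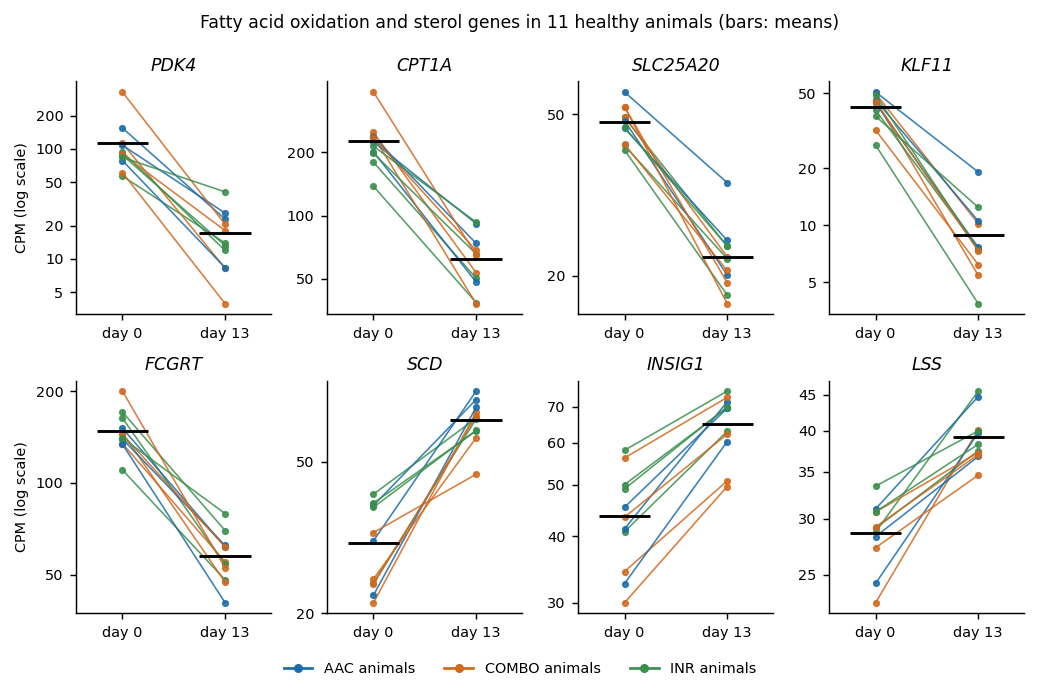
CPM on a log scale on day 0 and day 13 for fatty acid oxidation genes (PDK4, CPT1A, SLC25A20), KLF11, FCGRT and lipid synthesis genes (SCD, INSIG1, LSS), with 1 line per animal coloured by supplement and black bars for the means of 11 animals. All 11 lines fall in the first 5 panels and rise in the other 3, and INSIG1 is the panel in which the ranges of the 2 days overlap (29.98 to 58.03 against 49.6 to 74.98 CPM).

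Of the 27 tested genes of the fatty acid oxidation and fasting response list, 7 fell and 1 rose, with a median log2 change of -0.16. Over all tested genes, 3.65% were called lower and 3.48% higher. This list and all later ones were chosen with earlier results of these data known. Their shares of calls therefore describe the lists and are not independent evidence. ACADVL and HADHB, which catalyse steps of mitochondrial beta-oxidation itself, fell by 0.19 and 0.17 on the log2 scale (adjusted p = 0.0521 and 0.0913). The call of ACADVL was lost without COMBO 6, INR 7, INR 30 or COMBO 42, and that of HADHB was lost without any of COMBO 6, INR 7, INR 10, INR 30, AAC 34, COMBO 42, AAC 49, INR 50 or COMBO 57. ACADVL, HADHB and UCP2 were named after their values were seen. PPARA, the receptor that drives these genes in liver, went the other way and rose (from 22.9 ± 5.40 to 29.8 ± 7.10 CPM, adjusted p = 0.00838) in all 11 animals. The other 19 genes of the list were not called, and ACADL had no counts in the 22 libraries. Without COMBO 3, 12 genes of the list fell, without COMBO 6 and INR 50, 5 did, and with the haemoglobin share as a covariate the calls were CPT1A, SLC25A20 and PDK4.

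Other genes had changes as clear as those of the fatty acid genes. KLF11, a Kruppel-like transcriptional repressor induced by TGF-beta, ran from 26.5 to 50.7 CPM on day 0 (median 45.1) and from 3.85 to 19.1 CPM on day 13 (median 7.52) (log2 change -2.36 ± 0.14 (SE), adjusted p = 1.13e-05). Its relative KLF10 fell (from 78.97 ± 11.1 to 43.8 ± 9.51 CPM, adjusted p = 0.000494) in all 11 animals. FCGRT encodes the heavy chain of the neonatal Fc receptor, which protects IgG and albumin from breakdown, and ran from 110.25 to 199.97 CPM on day 0 (median 144) and from 40.5 to 79.33 CPM on day 13 (median 55.1) (log2 change -1.38 ± 0.09 (SE), adjusted p = 1.13e-05). For KLF11 and FCGRT the lowest day 0 level, both in INR 10, was still above every day 13 level. LOC514978, which has no gene name in the table, fell from 11.2 ± 7.38 to 1.69 ± 1.13 CPM (log2 change -2.78 ± 0.22 (SE), adjusted p = 4.39e-05). TTC7A, a scaffold of the phosphatidylinositol 4-kinase complex at the plasma membrane, fell (from 247 ± 31.7 to 171 ± 17.3 CPM, adjusted p = 0.000502), and EPHX1, the microsomal epoxide hydrolase, fell (from 48.3 ± 12.8 to 26.7 ± 7.43 CPM, adjusted p = 0.000882).

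Most of the other separated genes fell by less. CSNK1D, the casein kinase that phosphorylates PER proteins of the clock, fell (from 194 ± 10.3 to 171 ± 7.79 CPM, adjusted p = 0.0258). It lost its call without COMBO 6 and INR 50 together (adjusted p = 0.112). The calmodulin genes CALM2 (from 386 ± 21.6 to 306 ± 36.19 CPM, adjusted p = 0.00606) and CALM (from 42.3 ± 2.17 to 33.3 ± 4.39 CPM, adjusted p = 0.00414) fell together, but they are near-identical in sequence, so reads could have been split between them. CFP, which encodes properdin, the positive regulator of the alternative complement pathway, fell (from 65.5 ± 18.7 to 40.2 ± 10.19 CPM, adjusted p = 0.0223). The lectin-like receptor gene KLRJ1 was at 0 in 4 day 13 libraries and fell (from 0.733 ± 0.277 to 0.150 ± 0.134 CPM, adjusted p = 0.0205), and C18H19orf12 (from 15.6 ± 1.05 to 12.1 ± 0.954 CPM, adjusted p = 0.00408) and the possible pseudogene LOC100297240 (from 32.9 ± 1.78 to 25.6 ± 2.54 CPM, adjusted p = 0.00278) fell as well. CALM, CALM2, CFP, KLRJ1, C18H19orf12 and LOC100297240 were named after their values were seen. The study had singled out PDK4, CPT1A, FCGRT, ZDHHC3, LOC514978, LOC101905776 and LOC104971307 for a trend over time shared by its AAC and COMBO groups, to which 7 of these 11 animals belong, so their direction is not independent evidence. LOC101905776 fell (from 8.175 ± 5.38 to 1.74 ± 1.56 CPM, adjusted p = 0.0239), as did LOC104971307 (from 4.44 ± 2.80 to 2.07 ± 0.668 CPM, adjusted p = 0.0659), whose call was lost without COMBO 6, AAC 34, COMBO 42, AAC 46 or AAC 49. ZDHHC3, a palmitoyltransferase, was not called (-0.30 ± 0.11, adjusted p = 0.134).

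Of lipid synthesis genes, SCD, LSS, INSIG1 and FADS1 were higher on day 13 in all 11 animals, by smaller factors than PDK4 fell. SCD, the desaturase that makes oleate from stearate, ran from 21.3 to 41.1 CPM on day 0 (median 30.99) and from 46.3 to 76.6 CPM on day 13 (median 65.03), without overlap (log2 change 1.10 ± 0.12 (SE), adjusted p = 0.00104). LSS, the lanosterol synthase that closes the sterol ring, was separated too and ran from 22.8 to 33.4 CPM on day 0 (median 29.1) and from 34.6 to 45.5 CPM on day 13 (median 38.27) (log2 change 0.45 ± 0.06 (SE), adjusted p = 0.00355). INSIG1, the sterol-sensing anchor that holds SREBP in the endoplasmic reticulum and is itself an SREBP target, ran from 29.98 to 58.03 CPM on day 0 (median 43.44) and from 49.6 to 74.98 CPM on day 13 (median 69.6) and rose in all 11 animals (log2 change 0.59 ± 0.05 (SE), adjusted p = 0.000155). FADS1, the delta-5 desaturase of polyunsaturated fatty acid synthesis, rose (from 16.02 ± 4.78 to 25.9 ± 6.99 CPM, adjusted p = 0.00408), also in all 11.

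Of 23 tested genes of the cholesterol synthesis and efflux list, 11 rose, 1 fell and 11 were not called, where 3.48% of all tested genes were called higher and 3.65% lower. The median log2 change was 0.34 against 0.00 over all tested genes. As the list was chosen with earlier results of these data known, these shares are a description only. Risen genes included the isomerase IDI1 (0.41 ± 0.06, adjusted p = 0.00414), the squalene synthase FDFT1 (0.56 ± 0.09, adjusted p = 0.00686), the squalene epoxidase SQLE (0.50 ± 0.09, adjusted p = 0.0145), and the later steps CYP51A1 (0.51 ± 0.08, adjusted p = 0.00668), MSMO1 (0.53 ± 0.08, adjusted p = 0.00668) and SC5D (0.24 ± 0.04, adjusted p = 0.00960), each with its log2 change ± SE. NR1H3, which encodes the sterol-sensing liver X receptor alpha, rose (from 22.97 ± 5.18 to 33.7 ± 9.61 CPM, adjusted p = 0.0280). ABCA1, the exporter of cholesterol, was the gene of the list that fell (from 65.05 ± 18.1 to 45.5 ± 16.9 CPM, adjusted p = 0.0692), and its call was lost without INR 10, INR 30, AAC 34, AAC 46, AAC 49 or COMBO 57. The number of risen genes stayed between 11 and 13 when single animals were left out, and all 11 kept their calls in every fit that left out an animal. Without COMBO 6 and INR 50 together NR1H3 lost its call (adjusted p = 0.106). With the haemoglobin share as a covariate the median was 0.33 and 0 genes of the list were called. FDFT1, SC5D, SQLE, NR1H3 and ABCA1 were named after their values were seen.

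Many, but not all, of the listed genes that glucocorticoids induce were called lower on day 13. Of 21 tested members of the glucocorticoid-induced genes list, 13 fell, 0 rose and 8 were not called, with a median log2 change of -0.74. Over all tested genes, 3.65% were called lower and 3.48% higher. The list was chosen with earlier results of these data known, so its share of calls is a description and not independent evidence. The list's summed level ran from 3538 to 10473 CPM on day 0 (median 5238) and from 2392 to 4953 CPM on day 13 (median 2744). It was lower on day 13 in all 11 animals. Members of the list are shared with other lists, so these lists are not separate evidence. PDK4, its gene of smallest p, is also counted with the fatty acid genes. DUSP1 is also among the immediate early genes, IL1R2 in the interleukin-1 family and PER1 among the clock genes. CD163 is also counted with the monocyte markers. The summed level of those markers, given further on, was lower on day 13 in every animal but INR 50. TSC22D3 (GILZ), a glucocorticoid-induced inhibitor of NF-kB, ran from 898 to 2041 CPM on day 0 (median 1209) and from 570.4 to 1278 CPM on day 13 (median 778) and fell in all 11 animals (log2 change -0.64 ± 0.10 (SE), adjusted p = 0.00705). FKBP5, the co-chaperone that dampens the glucocorticoid receptor, ran from 119.9 to 1168 CPM on day 0 (median 293) and from 103.9 to 179 CPM on day 13 (median 144) (log2 change -1.17 ± 0.28 (SE), adjusted p = 0.0452). It fell in 10 animals, not in INR 30, and the spread between animals was far wider on day 0, with COMBO 6 highest at 1168 CPM and COMBO 42 next at 761 CPM. TXNIP, an inhibitor of thioredoxin and of glucose uptake, fell (from 1801 ± 475 to 1131 ± 307 CPM, adjusted p = 0.0164), and DDIT4, an inhibitor of mTORC1, fell (from 102.8 ± 52.2 to 52.4 ± 22.7 CPM, adjusted p = 0.0247). IRS2, the insulin receptor substrate (from 115.7 ± 67.2 to 51.6 ± 11.2 CPM, adjusted p = 0.0400), and ANXA1, the anti-inflammatory annexin (from 630.1 ± 240.4 to 420.2 ± 98.3 CPM, adjusted p = 0.0407), fell as well.

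Other genes of the list were less certain. DUSP1, a phosphatase of MAP kinases (-0.82 ± 0.21, adjusted p = 0.0560), CEBPD, an acute-phase transcription factor (-1.91 ± 0.50, adjusted p = 0.0575), the transcription factor KLF9 (-1.002 ± 0.27, adjusted p = 0.0660), the interleukin-1 decoy receptor IL1R2 (-1.28 ± 0.37, adjusted p = 0.0800) and SESN1, a sestrin (-0.31 ± 0.09, adjusted p = 0.0855), fell on the log2 scale, but these calls depended on single animals. They were lost without COMBO 6 in each of these genes, and also without COMBO 42 (CEBPD, KLF9, IL1R2 and SESN1), AAC 49 (DUSP1, KLF9, IL1R2 and SESN1), AAC 46 (KLF9, IL1R2 and SESN1), AAC 34, INR 50 or COMBO 57 (IL1R2 and SESN1), INR 7 (IL1R2) and INR 10 (SESN1). The clock gene PER1, a direct receptor target, ran from 12.96 to 98.1 CPM on day 0 (median 24.6) and from 13.9 to 19.8 CPM on day 13 (median 17.7) and was not called (-0.74 ± 0.25, adjusted p = 0.121), with a lower level on day 13 in 7 animals. Without COMBO 6, 8 genes of the list fell, and without COMBO 6 and INR 50, 6 did. PDK4, TSC22D3, TXNIP, DDIT4, CD163, FKBP5, IRS2 and ANXA1 kept their calls in every fit that left out 1 animal. With the haemoglobin share as a covariate the median was -0.94 and PDK4 was the gene called. FKBP5, CEBPD, KLF9, IRS2, ANXA1 and SESN1 were named after their values were seen.

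**Figure D2:**
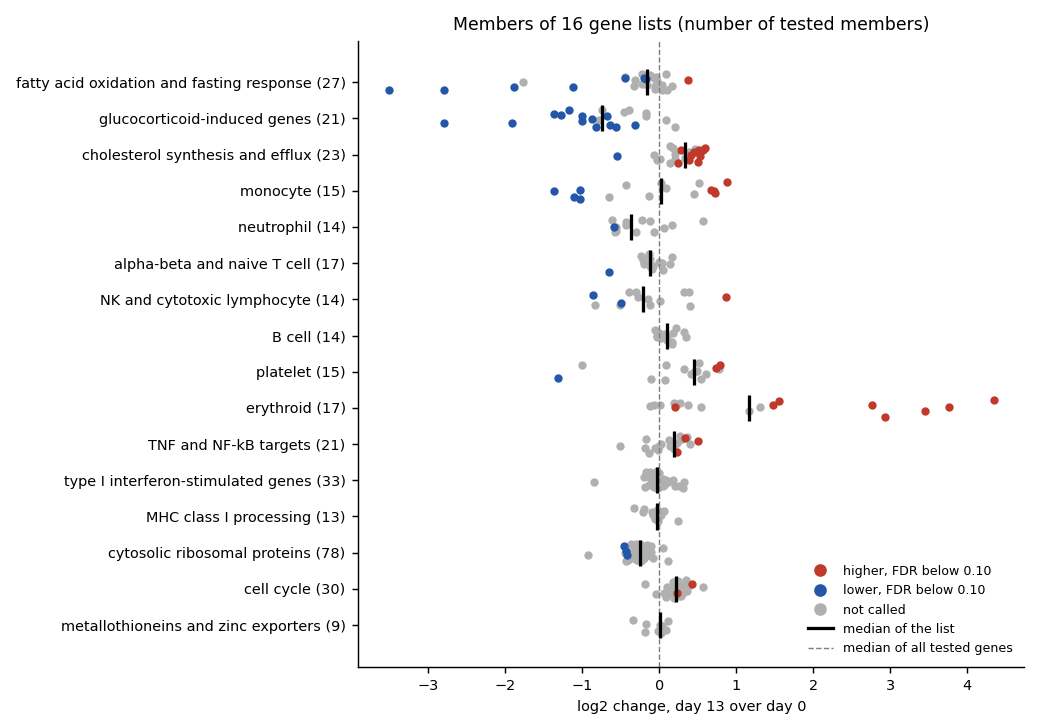
Log2 change from day 0 to day 13 for each tested member of 16 gene lists, with the number tested in brackets, black ticks for the median of each list, and red and blue for genes called higher and lower. The glucocorticoid-induced list lies to the left (median -0.74), and the cholesterol list (0.34) and the erythroid list (1.16) to the right of the dashed median of all tested genes.

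Among acute-phase and neutrophil genes, HP, BPI and S100A12 were called lower on day 13. HP, which encodes haptoglobin, the haemoglobin-binding acute-phase protein, ran from 101.496 to 759 CPM on day 0 (median 337) and from 44.5 to 345 CPM on day 13 (median 97.3) and fell in all 11 animals (log2 change -1.72 ± 0.21 (SE), adjusted p = 0.00252). In AAC 49 its day 13 level was 345 CPM, and the next highest was 187 CPM. BPI, the bactericidal protein of neutrophil granules, fell from 40.05 ± 29.3 to 10.1 ± 4.11 CPM (log2 change -1.74 ± 0.28 (SE), adjusted p = 0.00759) in all 11. It was the 1 gene called among 9 tested granule protein genes (median log2 change -0.25). Both lists of neutrophil genes had 1 call each, where 7.13% of all tested genes were called. Among 14 tested neutrophil markers, S100A12, a calgranulin, was the 1 gene called (from 951 ± 396 to 616 ± 165 CPM, adjusted p = 0.0938), and its call was lost without any 1 of the animals other than COMBO 3 and INR 10. S100A8 was not called (-0.58 ± 0.20, adjusted p = 0.134), and the median of the list was -0.37.

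The 15 tested monocyte markers split, with 4 higher, 4 lower and a median of 0.02, where 7.13% of all tested genes were called. Their summed level ran from 1574 to 4454 CPM on day 0 (median 2320) and from 1228 to 2302 CPM on day 13 (median 1731). It was higher on day 13 in 1 animal, INR 50. FCN1, the M-ficolin of classical monocytes and granulocytes, ran from 517 to 910.3 CPM on day 0 (median 726) and from 180.0 to 505 CPM on day 13 (median 376), without overlap (log2 change -1.11 ± 0.15 (SE), adjusted p = 0.00408). CD14, the lipopolysaccharide co-receptor, ran from 60.01 to 342 CPM on day 0 (median 121.03) and from 25.2 to 92.04 CPM on day 13 (median 52.59) and fell in all 11 animals (log2 change -1.03 ± 0.21 (SE), adjusted p = 0.0216). VCAN, a matrix proteoglycan made by classical monocytes, fell (from 499 ± 240.1 to 227 ± 60.9 CPM, adjusted p = 0.0131), and CD163, the haemoglobin scavenger receptor, fell (from 216 ± 146 to 72.5 ± 24.1 CPM, adjusted p = 0.0391). The 4 lowered markers kept their calls in every fit that left out 1 animal. MS4A7, a membrane protein of monocytes and macrophages, rose in all 11 animals (from 39.5 ± 15.1 to 71.1 ± 23.8 CPM, adjusted p = 0.00355). The complement C1q chains C1QA (from 39.1 ± 24.6 to 63.7 ± 37.5 CPM, adjusted p = 0.0586), C1QB (from 31.5 ± 19.01 to 52.62 ± 27.7 CPM, adjusted p = 0.0563) and C1QC (from 42.2 ± 22.3 to 71.9 ± 39.96 CPM, adjusted p = 0.0474) rose in 9 or 10 animals. Without INR 7, AAC 34, AAC 49 or INR 50 the calls of C1QA and C1QB were lost (C1QB also without AAC 46), which left 2 higher markers, and without both COMBO 6 and INR 50 MS4A7 alone was higher. With the haemoglobin share as a covariate 0 monocyte markers were called, with log2 changes of -1.001 for FCN1, -1.28 for CD14, -1.22 for VCAN, -1.40 for CD163 and 0.72 for MS4A7. In the same fit the log2 changes were 0.12 for C1QA, 0.13 for C1QB and 0.22 for C1QC, against 0.67, 0.72 and 0.71 without the covariate. The C1q genes were named after their values were seen.

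**Figure D3:**
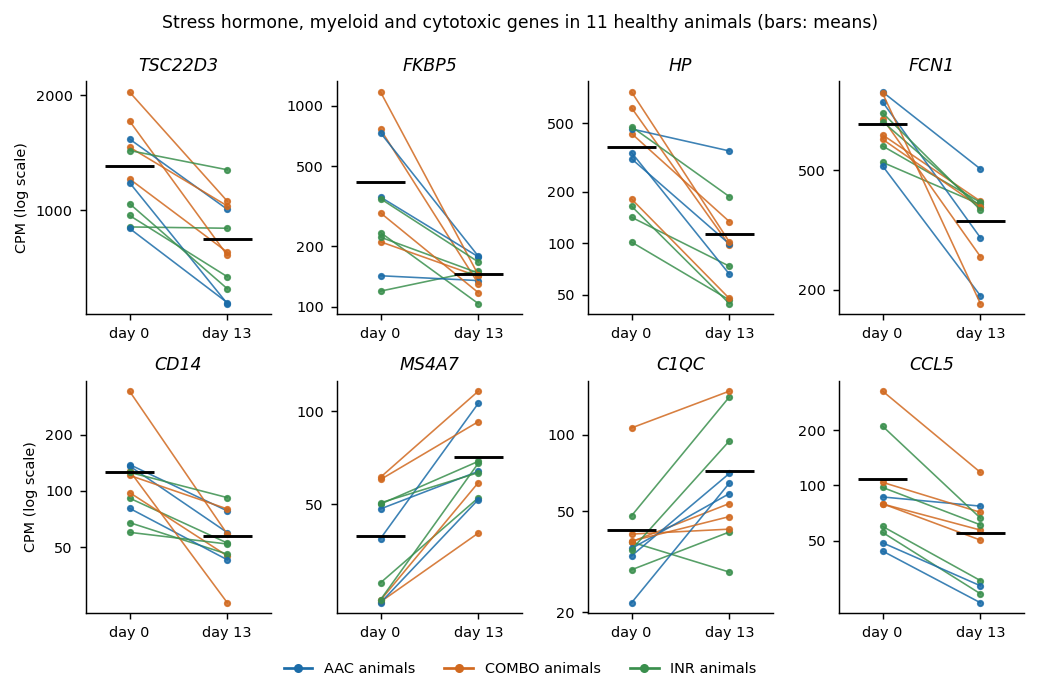
CPM on a log scale on day 0 and day 13 for glucocorticoid-induced genes (TSC22D3, FKBP5), HP, monocyte markers (FCN1, CD14, MS4A7, C1QC) and CCL5, with 1 line per animal coloured by supplement and black bars for the means of 11 animals. FKBP5 spreads from 119.9 to 1168 CPM on day 0 and from 103.9 to 179 CPM on day 13, FCN1 and CD14 fall in every animal, and MS4A7 rises in every animal.

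Lymphocyte marker lists of T, B, plasma and regulatory T cells held 0 or 1 call each, where 7.13% of all tested genes were called. Of 17 tested T cell markers 1 fell and 5, all lower, had an unadjusted p below 0.05 (median log2 change -0.12). Over all tested genes, 22.6% had an unadjusted p below 0.05. IL7R, the interleukin-7 receptor of naive and memory T cells, ran from 286 to 656 CPM on day 0 (median 471) and from 177 to 416 CPM on day 13 (median 287) (log2 change -0.66 ± 0.13 (SE), adjusted p = 0.0232). It lost its call without COMBO 6 and INR 50 together (adjusted p = 0.11). GATA3, counted here with the gamma-delta T cell markers and also a type 2 T cell factor, fell (from 62.4 ± 11.2 to 54.3 ± 11.4 CPM, adjusted p = 0.0807), a call lost without COMBO 6, INR 7, INR 10, INR 30, AAC 49, INR 50 or COMBO 57, and the other 4 of those markers were not called (median -0.10). Of 14 B cell markers 0 were called (median 0.10, 2 with an unadjusted p below 0.05, 1 called by DESeq2 and 0 by limma-voom), and of 9 plasma cell markers 0 were called (median 0.15, 3 with an unadjusted p below 0.05, 1 called by DESeq2 and 0 by limma-voom). JCHAIN, the joining chain of IgM and IgA, went from 393 ± 163 to 577 ± 283 CPM (adjusted p = 0.219). Of 12 regulatory T cell and checkpoint genes 0 were called (median -0.06), with 0 at an unadjusted p below 0.05 and 0 called by DESeq2 or limma-voom. Without COMBO 3, 2 B cell markers and 1 plasma cell marker were called higher and 3 T cell markers lower, and without INR 10, 1 B cell marker was called higher. The neutrophil, granule protein, eosinophil and basophil and gamma-delta T cell lists each had 1 more call without COMBO 3, as did those of Toll-like receptors, the interleukin-1 family and cobalamin, which are given further on.

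Cytotoxic markers were less even. CCL5 (RANTES), a chemokine of cytotoxic T cells, NK cells and platelets, ran from 43.9 to 326 CPM on day 0 (median 79.5) and from 22.99 to 117.9 CPM on day 13 (median 57.2) and fell in all 11 animals (log2 change -0.86 ± 0.12 (SE), adjusted p = 0.00451). NCR1, the activating NK receptor NKp46, fell (from 77.8 ± 38.8 to 55.68 ± 27.4 CPM, adjusted p = 0.0254), while GZMK, a granzyme of memory T cells at a low level, rose (from 1.05 ± 0.556 to 1.93 ± 0.888 CPM, adjusted p = 0.0852). The call of GZMK was lost without INR 7, INR 10, AAC 34, COMBO 42, AAC 46, AAC 49 or INR 50, and that of CCL5 and NCR1 was kept in each such fit. These were the 3 calls among 14 tested genes of the list (median -0.21), where 7.13% of all tested genes were called. Without COMBO 3, 5 genes of the list fell, without COMBO 6, 4 fell, and 0 of the 14 were called in the unpaired fit (no animal block). Among 15 platelet markers, SELP (P-selectin) rose (from 8.25 ± 5.38 to 13.3004 ± 7.27 CPM, adjusted p = 0.0280), as did the megakaryocyte inhibitory receptor MPIG6B (from 185 ± 116.33 to 278 ± 111.7 CPM, adjusted p = 0.0327), and THBS1 (thrombospondin-1), which monocytes also make, fell in all 11 animals (from 135 ± 106.3 to 49.9 ± 31.6 CPM, adjusted p = 0.00506). The platelet list had 3 calls, where 7.13% of all tested genes were called, and a median of 0.46. Its number of higher calls was 4 without COMBO 3 and 5 without INR 7. MPIG6B lost its call without COMBO 6 and INR 50 together (adjusted p = 0.103). Of 11 eosinophil and basophil markers (median 0.13), FCER1A, the high-affinity IgE receptor chain, rose (from 4.52 ± 2.56 to 7.77 ± 2.66 CPM, adjusted p = 0.0716). That was 1 call of 11, where 7.13% of all tested genes were called. It was lost without COMBO 6, INR 30, AAC 34, COMBO 42 or AAC 49.

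Lists of interferon, sensor and antigen presentation genes held 0 or 1 call each, where 7.13% of all tested genes were called. Over all tested genes, 22.6% had an unadjusted p below 0.05. Of 33 tested type I interferon-stimulated genes, 0 were called and 0 had an unadjusted p below 0.05, with a median log2 change of -0.03, and DESeq2 and limma-voom called 0 as well. The gene of smallest p was IFIT2, whose levels ran from 7.68 to 124.36 CPM on day 0 (median 21.6) and from 3.19 to 41.1 CPM on day 13 (median 12.1) (adjusted p = 0.431). The summed level of the list had an SD of 4386 CPM on day 0 and 1926 CPM on day 13 (n = 11) and was higher on day 13 in 6 animals. SOCS1, a feedback inhibitor of cytokine receptors, fell in all 11 animals (from 16.7 ± 9.99 to 8.15 ± 3.83 CPM, adjusted p = 0.0442). It was the 1 call among 15 interferon-gamma response genes (median 0.02) and among 19 genes of STAT and SOCS feedback (median 0.01). SOCS1 lost its call without COMBO 6 and INR 50 together (adjusted p = 0.112). TLR7, the endosomal sensor of single-stranded RNA, fell in all 11 (from 107.9 ± 14.7 to 83.4 ± 13.9 CPM, adjusted p = 0.0137) and was the 1 call among 9 Toll-like receptors (median 0.06). Of 15 MHC class II genes (median 0.03), BOLA-DMB, a peptide-loading chain, fell (from 419 ± 60.5 to 366 ± 67.6 CPM, adjusted p = 0.0687), a call lost without COMBO 6, INR 30, AAC 34, COMBO 42 or AAC 49, and of 13 MHC class I genes (median -0.03) 0 were called, with 0 at an unadjusted p below 0.05 and 0 called by DESeq2 or limma-voom.

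Some targets of TNF and NF-kB rose. BIRC3, an inhibitor of apoptosis that NF-kB induces, rose (from 361 ± 51.8 to 511 ± 67.6 CPM, adjusted p = 0.0107) in 10 animals, and TNF (from 26.5 ± 2.71 to 30.93 ± 3.15 CPM, adjusted p = 0.0819) and NFKB2 (from 113.24 ± 27.2 to 141 ± 29.8 CPM, adjusted p = 0.0907) rose with it. These were the 3 calls among 21 genes (median log2 change 0.19), where 7.13% of all tested genes were called. BIRC3 was the 1 of them that kept its call in every fit without 1 animal. The call of TNF was lost without COMBO 6, INR 30, COMBO 42, AAC 46, AAC 49, INR 50 or COMBO 57, and that of NFKB2 without any of these other than COMBO 42 and also without INR 7 or INR 10. Without COMBO 3, 5 genes of the list rose. TNFRSF8, which encodes the activation marker CD30, rose in all 11 animals (from 31.4 ± 8.47 to 53.04 ± 17.3 CPM, adjusted p = 0.00322). Among 18 genes of the interleukin-1 family and inflammasome (median -0.16), IL18 rose (from 11.5 ± 3.24 to 19.7 ± 7.54 CPM, adjusted p = 0.0826) and IL1R2 fell, as given above. This list had 2 calls, where 7.13% of all tested genes were called. IL18 lost its call without INR 7, INR 30, AAC 46, AAC 49, INR 50 or COMBO 57. Among 16 lipid mediator genes (median -0.10), PTGS2, the inducible cyclooxygenase, rose in all 11 animals from a low level (from 1.22 ± 0.552 to 2.37 ± 1.004 CPM, adjusted p = 0.00414), whereas the prostaglandin E2 receptor PTGER4 (from 176 ± 42.1 to 127.8 ± 24.3 CPM, adjusted p = 0.0485) and the leukotriene B4 receptor LTB4R (from 2.74 ± 0.643 to 2.02 ± 0.664 CPM, adjusted p = 0.0826) fell. The lipid mediator list had these 3 calls, where 7.13% of all tested genes were called. The call of PTGER4 was lost without COMBO 6, and that of LTB4R without any animal other than COMBO 3 or INR 10.

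Red cell transcripts were among those with the largest increases. HBB, the haemoglobin beta chain, ran from 18.5 to 613 CPM on day 0 (median 94.44) and from 90.8 to 6048 CPM on day 13 (median 940.5) and rose in all 11 animals (log2 change 2.93 ± 0.51 (SE), adjusted p = 0.0113), although the ranges of the 2 days overlapped. HBA1, an alpha chain gene and the most abundant of the list in CPM, ran from 3.36 to 1099.7 CPM on day 0 (median 79.1) and from 21.7 to 16597 CPM on day 13 (median 2502) and rose in 10 animals, not in COMBO 57 (log2 change 4.35 ± 0.82 (SE), adjusted p = 0.0164). HBA (3.76 ± 0.70, adjusted p = 0.0160) and HBM (3.45 ± 0.58, adjusted p = 0.00978) rose as well, with the log2 change ± SE in brackets, but the alpha chain genes are near-identical and reads could have been split between HBA and HBA1. ALAS2, the first enzyme of haem synthesis in red cells (from 10.22 ± 10.3 to 81.4 ± 95.1 CPM, adjusted p = 0.0318), and EPB42, a protein of the red cell membrane skeleton (from 1.06 ± 0.927 to 3.14 ± 2.17 CPM, adjusted p = 0.0137), rose in 10 animals. GYPB, a glycophorin (from 0.590 ± 0.621 to 1.58 ± 1.43 CPM, adjusted p = 0.0687), and FECH, the enzyme that puts iron into haem (from 43.5 ± 5.38 to 49.9 ± 4.74 CPM, adjusted p = 0.0616), rose too. The call of GYPB was lost without COMBO 6, INR 7, AAC 34, COMBO 42 or AAC 49 and that of FECH without COMBO 6, INR 7, INR 30, COMBO 42, AAC 49 or INR 50. In all, 8 of 17 tested erythroid markers rose and 0 fell (median log2 change 1.16), where 3.48% of all tested genes were called higher. CA1 and TSPO2 of the list were at 0 in the 22 libraries. The summed level ran from 408 to 2437 CPM on day 0 (median 681) and from 642 to 25856 CPM on day 13 (median 4223). Without COMBO 6 and INR 50 together, HBB, HBA, HBA1, HBM and EPB42 kept their calls, while ALAS2 (adjusted p = 0.133), GYPB (0.111) and FECH (0.222) lost theirs. With the haemoglobin share as a covariate 0 were called. That share is made up of haemoglobin genes, several of them in this list, so the loss was largely fixed in advance and tests nothing. ALAS2, GYPB and FECH were named after their values were seen.

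Genes outside the list rose by large factors too. ATP5IF1, the inhibitor of mitochondrial ATP synthase and a factor in red cell haem synthesis, rose (from 79.7 ± 30.7 to 242 ± 157 CPM, adjusted p = 0.0217), and LOC787671, which has no name in the table, rose in all 11 animals (from 6.04 ± 9.46 to 94.9 ± 115.6 CPM, adjusted p = 0.00451). Both had their highest day 13 level in INR 7, as HBB and HBA1 did. With the haemoglobin share as a covariate the log2 change went from 1.41 to -0.18 for ATP5IF1 and from 4.62 to 1.47 for LOC787671. Neither was called in that fit. The collagen genes COL1A1, COL1A2 and COL3A1, which blood cells hardly express, were the 3 calls among 6 tested connective tissue genes (median log2 change 3.88). The list held 9 genes, and the others did not pass the filter on low counts. With day 0 medians of 0.126, 0 and 0.0584 CPM, the collagen genes passed that filter largely through day 13. The share called and the median carry that choice and are not independent evidence of a rise. Over all tested genes, 7.13% were called. COL1A1 ran from 0 to 16.8 CPM on day 0 (median 0.126) and from 0 to 2549 CPM on day 13 (median 12.7), with 2549 CPM in INR 50 and 115.01 CPM in COMBO 6 as the highest, and COL3A1 ran from 0 to 0.803 CPM on day 0 (median 0.0584) and from 0 to 1828 CPM on day 13 (median 6.50), with the same 2 libraries highest. Day 0 levels of these genes were at or near 0 in most libraries, and their adjusted p were 0.0965, 0.0712 and 0.0591. All 3 calls were lost without COMBO 6, INR 30, COMBO 42 or AAC 49, COL1A1 and COL1A2 also without AAC 34, AAC 46 or INR 50, and COL1A1 also without INR 7.

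**Figure D4:**
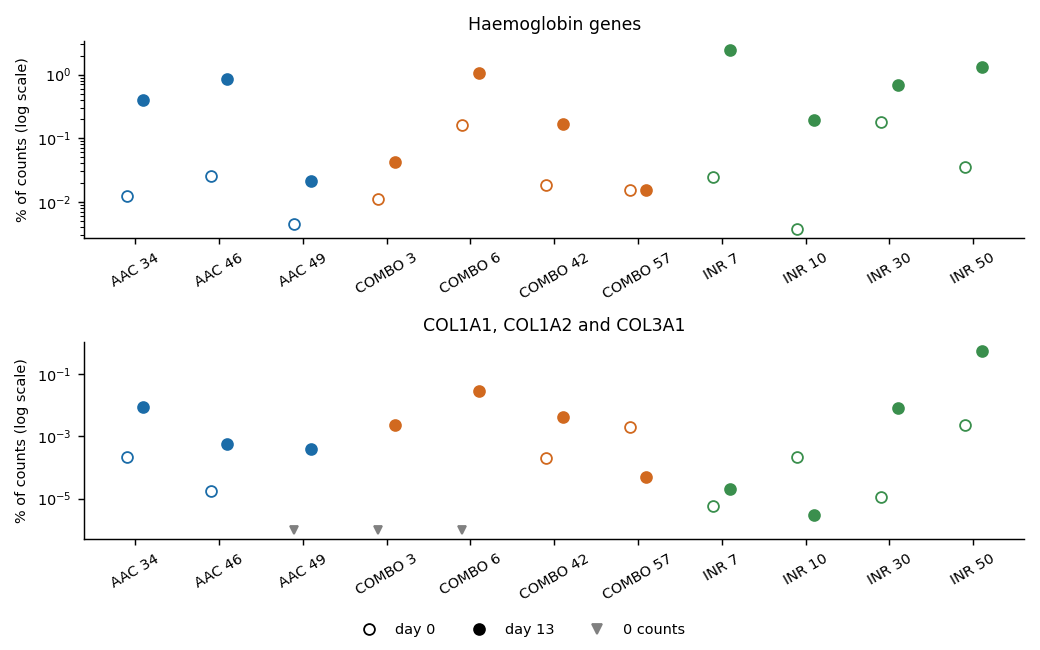
Percent of all counts, on a log scale, taken by haemoglobin genes (upper panel) and by COL1A1, COL1A2 and COL3A1 (lower panel) in each of the 11 animals on day 0 (open) and day 13 (filled), with grey triangles where no count was found. The haemoglobin share is higher on day 13 in every animal, at most 2.47% in INR 7, and the collagen share stands out in INR 50 on day 13, at 0.582%.

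Among genes for handling the supplemented minerals and iron, ATP7B, MUT, STEAP3, GPX1 and SRXN1 rose and TCN2, SLC11A1 and HP fell. These were 8 calls among the 95 tested entries of 6 lists, where 7.13% of all tested genes were called. An unadjusted p below 0.05 was reached by 22.6% of all tested genes. Of 9 tested metallothionein and zinc exporter genes, 0 were called (median log2 change 0.01, 2 with an unadjusted p below 0.05, smallest adjusted p = 0.153), and of 12 ZIP importers of zinc and manganese 0 were called (median -0.05, 2 with an unadjusted p below 0.05). DESeq2 and limma-voom called 0 in both lists, and 1 zinc exporter or metallothionein was called higher without COMBO 3. ATP7B, the copper-exporting ATPase, rose in all 11 animals (from 3.26 ± 1.14 to 4.79 ± 1.90 CPM, adjusted p = 0.0280) and was the 1 call among 16 copper genes (median -0.06), of which 3 were higher and 2 lower without COMBO 3. Among 16 genes of cobalamin, the cobalt vitamin (median 0.01), MUT, the methylmalonyl-CoA mutase that needs it, rose (from 27.9 ± 2.69 to 31.7 ± 1.52 CPM, adjusted p = 0.0536), a call lost without COMBO 6 or COMBO 42, and TCN2, its plasma carrier, fell (from 52.59 ± 17.3 to 40.1 ± 9.20 CPM, adjusted p = 0.0965), a call lost without any animal other than COMBO 3 or INR 50. STEAP3, an endosomal ferrireductase, rose in all 11 (from 11.5 ± 2.99 to 18.7 ± 6.08 CPM, adjusted p = 0.00904). SLC11A1 (NRAMP1), a phagosomal exporter of iron and manganese, fell (from 79.4 ± 54.1 to 34.3 ± 13.9 CPM, adjusted p = 0.0660), a call lost without INR 7, INR 30, AAC 34, COMBO 42, AAC 46 or INR 50. With HP these were the 3 calls among 17 genes of haptoglobin, haem and iron handling (median 0.08), of which 5 were lower and 2 higher without COMBO 3. Of 25 antioxidant enzymes (median -0.02), GPX1, the selenium-dependent glutathione peroxidase (from 6.51 ± 3.34 to 19.8 ± 15.8 CPM, adjusted p = 0.0656), and SRXN1, the sulfiredoxin (from 47.4 ± 17.6 to 69.2 ± 27.6 CPM, adjusted p = 0.0768), rose. The call of GPX1 was lost without COMBO 6, INR 7, INR 30, AAC 49, INR 50 or COMBO 57, and that of SRXN1 without COMBO 6, INR 10, INR 30, AAC 34, AAC 46, AAC 49 or INR 50.

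Housekeeping and growth lists held 2 calls of 30 cell cycle genes, 3 of 78 ribosomal proteins, 1 of 75 respiratory chain genes, 0 of 37 proteasome subunits and 4 of 56 splicing factors, where 7.13% of all tested genes were called, so the calls are given as single genes and not as changes of these families. Most members of the cell cycle, ribosomal, respiratory chain and proteasome lists nonetheless moved in the same direction, as given below. The cell cycle list had 2 higher genes of 30, PLK1, a mitotic kinase (from 70.9 ± 9.29 to 82.94 ± 8.20 CPM, adjusted p = 0.0245), and CENPF, a kinetochore protein (from 46.01 ± 7.33 to 62.4 ± 14.9 CPM, adjusted p = 0.0268), with a median log2 change of 0.22. An unadjusted p below 0.05 was reached by 11 of the 30, all higher, where 22.6% of all tested genes reached it. Of the 30, 28 had a log2 change above 0. With the haemoglobin share as a covariate, the log2 change went from 0.23 to 0.09 for PLK1 and from 0.42 to 0.21 for CENPF, and neither was called. Both calls were kept in every fit without 1 animal, and the list had 4 higher genes without COMBO 3 or INR 30. CENPF lost its call without COMBO 6 and INR 50 together (adjusted p = 0.118). Of 78 cytosolic ribosomal proteins, 3 fell (RPLP1, RPL31 and RPS27, adjusted p = 0.0611, 0.0871 and 0.0893) and 41 had an unadjusted p below 0.05, all lower, with a median of -0.25. Such a p was reached by 22.6% of all tested genes. Their summed level was higher on day 13 in 2 animals. Of these 78 ribosomal proteins, 76 had a log2 change below 0. Without COMBO 3, 54 of them were called lower, and 0 were without COMBO 6, INR 7, INR 30, COMBO 42 or AAC 49. A single one was called without AAC 34, AAC 46 or COMBO 57. On day 13, COMBO 3 had the highest levels of RPLP1, RPL31 and RPS27 (1661, 879 and 547 CPM). The next highest were those of COMBO 42 (1170, 587 and 384 CPM). Of 75 nuclear-encoded respiratory chain genes, ATP5IF1 was the 1 call, and it was higher, while 66 had a log2 change below 0 (median -0.13). An unadjusted p below 0.05 was reached by 16 lower and 2 higher genes of this list, where 22.6% of all tested genes reached it. Without COMBO 3, 36 genes of the list were called lower. The 37 proteasome subunits had 0 calls (median -0.08, 34 with a log2 change below 0, 1 with an unadjusted p below 0.05, 0 called by DESeq2 or limma-voom), and 9 were called lower without COMBO 3. Among 56 splicing factors (median 0.02), PRPF38B, HNRNPDL, HNRNPH1 and SRSF10 rose, by 0.21, 0.26, 0.32 and 0.20 on the log2 scale (adjusted p from 0.0729 to 0.0917), and no splicing factor was called higher without COMBO 6, INR 7, INR 30, AAC 34, COMBO 42, AAC 49, INR 50 or COMBO 57, while 17 were higher and 6 lower without COMBO 3, 8 were higher without INR 10, and 1 was higher and 2 lower without AAC 46.

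Stress and signalling lists held calls in both directions, 2 of 22 glycolysis genes, 2 of 20 heat shock chaperones, 0 of 21 endoplasmic reticulum chaperones, 2 of 21 clock genes and 4 of 24 immediate early genes, where 7.13% of all tested genes were called. PFKFB3, the enzyme that makes the activator of glycolysis, fell (from 358 ± 179.8 to 184 ± 55.8 CPM, adjusted p = 0.0231) and, with the aldolase ALDOA (from 504 ± 66.2 to 428 ± 55.2 CPM, adjusted p = 0.0755), made up the 2 calls among 22 glycolysis genes (median log2 change -0.12). ALDOA lost its call without COMBO 6, INR 7, INR 30, AAC 34, COMBO 42 or INR 50, and 7 genes of the list fell without COMBO 3. Of 20 heat shock chaperones (median -0.10), HSPA1A (HSP70) fell in all 11 animals (from 135 ± 29.8 to 107.9 ± 9.68 CPM, adjusted p = 0.0660), a call lost without INR 7, AAC 34, COMBO 42, INR 50 or COMBO 57, and the mitochondrial chaperone TRAP1 rose (from 49.01 ± 6.36 to 54.5 ± 4.86 CPM, adjusted p = 0.0838), a call kept without COMBO 3, INR 10 or COMBO 57 and lost without any other animal. An unadjusted p below 0.05 was reached by 6 lower and 1 higher of these chaperones, where 22.6% of all tested genes reached it. Without COMBO 3, 4 of them were called lower and 2 higher, and without INR 10, 2 lower. Of 21 endoplasmic reticulum chaperones (median -0.01), 0 were called and 2 had an unadjusted p below 0.05, and DESeq2 and limma-voom called 0, while 1 was lower without COMBO 3. Among 21 circadian clock genes (median 0.03), PER3 rose (from 22.7 ± 5.70 to 31.05 ± 12.6 CPM, adjusted p = 0.0698) and CSNK1D fell, and PER3 lost its call without COMBO 6, INR 7, INR 30, AAC 34, COMBO 42, INR 50 or COMBO 57. Of 24 immediate early genes (median -0.12), NR4A1, an orphan nuclear receptor induced by antigen receptor signalling, rose (from 9.37 ± 2.84 to 16.99 ± 4.97 CPM, adjusted p = 0.0131) and kept its call in every fit without 1 animal. Without COMBO 3 this list had 2 higher and 5 lower genes. MYC (from 259 ± 62.201 to 224 ± 57.2 CPM, adjusted p = 0.0563), KLF6 (from 301 ± 88.3 to 232 ± 52.2 CPM, adjusted p = 0.0808) and DUSP1 fell. The call of MYC was lost without INR 7, INR 30, AAC 49, INR 50 or COMBO 57 and that of KLF6 without COMBO 6, INR 7, AAC 34, COMBO 42, AAC 46, AAC 49 or INR 50.

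Several of the most clearly raised genes belonged to none of the lists. PKD2L1, a polycystin family cation channel, rose from a low level (from 0.537 ± 0.182 to 1.23 ± 0.359 CPM, adjusted p = 0.000496), and ABAT, the transaminase that breaks down GABA, rose (from 5.81 ± 1.81 to 9.38 ± 2.82 CPM, adjusted p = 0.00372). RELT, a receptor of the TNF receptor family (from 37.32 ± 9.43 to 60.8 ± 19.03 CPM, adjusted p = 0.00408), MYOF, the membrane repair protein myoferlin (from 41.7 ± 9.58 to 75.4 ± 26.5 CPM, adjusted p = 0.00408), and LOC617785, without a name in the table (from 50.1 ± 16.3 to 82.98 ± 22.9 CPM, adjusted p = 0.00355), rose as well. Each of these 5 genes was higher on day 13 in all 11 animals and kept its call in every fit without 1 animal. Other genes that fell were BRB, which encodes the brain ribonuclease of ruminants (from 32.4 ± 27.1 to 6.95 ± 5.96 CPM, adjusted p = 0.0159), and the unnamed LOC107131715 (from 3.63 ± 3.26 to 0.632 ± 0.332 CPM, adjusted p = 0.0145) and LOC104976293 (from 2.89 ± 0.497 to 1.19 ± 0.482 CPM, adjusted p = 0.00256). BRB and LOC107131715 fell in 10 animals and LOC104976293 in all 11.

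Whether the change differed between the supplements was tested with terms for supplement by day. Of 16063 genes, 0 (0%) were called by edgeR, 1569 had an unadjusted p below 0.05, and the smallest adjusted p was 0.279. DESeq2 called 335 genes, limma-voom 0, and the edgeR test 28 without COMBO 57. Supplement and first pen cannot be told apart, since the COMBO animals all stood in 1 pen, so these terms carry pen as well. The mean change of PDK4 over animals, as the log2 ratio with 0.5 CPM added, was -2.63 in AAC, -3.43 in COMBO and -2.16 in INR animals. For KLF11 it was -1.97 in AAC, -2.50 in COMBO and -2.30 in INR animals, and for SCD 1.28 in AAC, 1.20 in COMBO and 0.84 in INR animals. FKBP5 ranged more widely, with -1.03 in AAC, -1.86 in COMBO and -0.62 in INR animals. Fitted alone, the 3 AAC animals gave 2 calls, HBA (higher) and LOC514978 (lower), and the 4 COMBO animals 5, CPT1A, KLF11, LOC514978, THBS1 and RFX2, a transcription factor of ciliated cells named after its value was seen, all lower. The 4 INR animals gave 0 calls at a smallest adjusted p of 0.128, with 4002 genes at an unadjusted p below 0.05.

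The same interval was compared with that of 14 cattle labelled with BRD, in a fit of 50 libraries with a term for disease by day. The labels do not say when these cattle fell ill or were treated. COMBO cattle were also drenched alongside any treatment for illness, so their interval may carry further treatments. Of 16927 genes, 0 (0%) were called as changing differently, with 365 at an unadjusted p below 0.05 and a smallest adjusted p of 1. DESeq2 called 2 genes (LOC107132911 and LOC112449266) and limma-voom 1 (LOC522763), all named after their values were seen. KLF11 changed by -2.36 ± 0.13 in healthy and -1.76 ± 0.12 in BRD cattle, a difference of 0.60 (95% confidence interval 0.25 to 0.95), the unadjusted p of which was 0.00170. CPT1A changed by -1.88 ± 0.13 in healthy and -1.43 ± 0.12 in BRD cattle, a difference of 0.46 (95% confidence interval 0.10 to 0.81). FKBP5 changed by -1.17 ± 0.26 in healthy and -0.39 ± 0.22 in BRD cattle, a difference of 0.78 (95% confidence interval 0.09 to 1.48). These 3 genes were named for their decrease in the healthy animals, and a choice of that kind by itself favours a smaller decrease in any other group. None of the 3 passed the adjustment over all genes, so their intervals, which lie above 0 without adjustment, are given as a description and not as a difference between healthy and BRD cattle. SCD changed by 1.10 ± 0.14 in healthy and 1.03 ± 0.12 in BRD cattle, a difference of -0.07 (95% confidence interval -0.44 to 0.31), and HP by -1.72 ± 0.20 in healthy and -1.97 ± 0.17 in BRD cattle, a difference of -0.25 (95% confidence interval -0.78 to 0.28), intervals that span 0 and allow a difference in either direction.

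The same 11 animals were also sampled on days 28, 45 and 60, which places the 2 days in a longer course. These later values are levels only, without calls, since they share the day 0 libraries with the comparison above. The scaling factors are those of the 55 libraries, so levels differ slightly from those given before. Mean levels of CPT1A, from day 0 through days 13, 28 and 45 to day 60, were 227, 62.4, 64.9, 61.7 and 58.19 CPM. For KLF11 they were 42.37, 8.87, 10.3, 8.64 and 8.20 CPM, and for FCGRT 148, 57.4, 57.9, 63.6 and 56.8 CPM. Day 0 thus stood alone for these genes, and the 4 later days lay close together: the highest single level of CPT1A from day 28 onward was 92.8 CPM, below the lowest day 0 level of 138 CPM. PDK4 averaged 113.96, 17.1, 12.6, 12.5 and 16.02 CPM on the same days, and HP 361, 112.8, 97.39, 98.8 and 79.96 CPM. FKBP5, at 416, 145, 141, 152 and 134 CPM, had its widest spread on day 0 (SD 330.5 CPM, n = 11) and SDs of 18.5 to 59.3 CPM afterwards. SCD, at 30.5, 64.2, 77.4, 66.2 and 60.4 CPM, and INSIG1, at 43.6, 64.9, 75.9, 70.1 and 65.34 CPM, were highest on average on day 28. HBB averaged 170.0, 1638, 1181, 2994 and 942 CPM, with a single library at 18104 CPM on day 45.

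**Figure D5:**
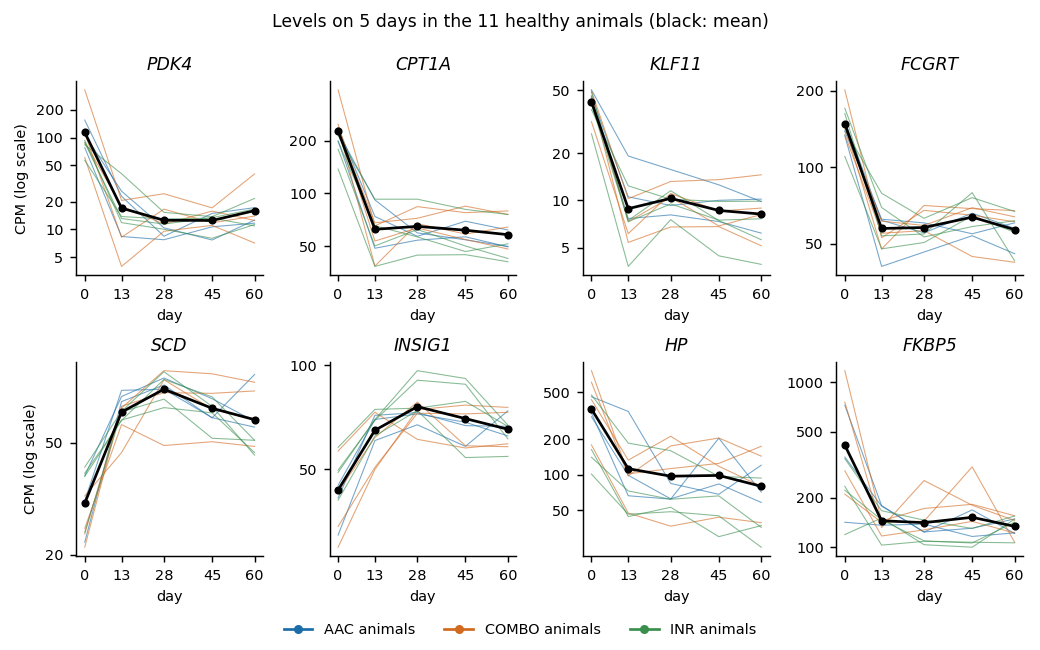
CPM on a log scale at the 5 sampling days from day 0 to day 60 for 8 genes in the 11 healthy animals, with thin lines for single animals coloured by supplement and black points for the means. CPT1A, KLF11, FCGRT, PDK4, HP and FKBP5 have their highest mean on day 0, and SCD and INSIG1 their lowest.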

How the data were processed

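Whole blood was drawn into Tempus RNA tubes, and stranded mRNA libraries were sequenced as paired ends. Per the submitters' processing notes, FastQC 0.11.9, Trimmomatic 0.39, HISAT2 2.1.1, StringTie 2.2.0 and edgeR 3.36.0 were used, and the study's methods name another HISAT2 release. Reads were mapped to the ARS-UCD1.3 assembly, and the authors deposited raw gene counts, which the prepDE script derives from the read coverage of assembled transcripts, for 32395 genes and 129 libraries. All values were whole numbers, and no pair of the 22 libraries was identical.

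Genes were filtered with filterByExpr, scaled by TMM and fitted with edgeR 4.0.16 (R 4.3.3) under a common dispersion, with terms for animal and day, by the quasi-likelihood F-test. Calls were made at a Benjamini-Hochberg adjusted p below 0.10. Levels are CPM, the counts scaled by TMM-adjusted totals, given as mean ± SD of 11 animals unless stated, and p-values in the text without another name are from this test. Samples were grouped and paired by the animal number in the labels. Deviations from the day means correlated between libraries of the same animal at 0.240 to 0.580, and each animal's day 0 library matched its own day 13 library best in 11 of 11 cases. DESeq2 1.42.0, limma-voom (limma 3.58.1), other scalings, filters, thresholds and sample sets were alternatives. The fits were tested on simulated data.

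Genes were described in 41 lists, 12 of cell type markers and 29 of pathways. The text draws on the 238 genes that its rule gave, which were the 12 genes of smallest p in each direction, the 6 largest changes in each direction at a mean of at least 1 CPM, up to 5 members of smallest p per list, and 7 genes that the study had singled out. Genes named outside the rule are marked as such. Some members of the lists are counted but not reported by name here. The members, lists and rule were chosen with earlier results of these data known. Each library is a separate blood sample with at least 31613545 counts. Sequences and coordinates are not given, since no genome of the files' build was used here.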

Additional observations from a re-analysis of the deposited data

How the results depend on the processing

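The limits of the comparison lie in its 11 animals and in the day itself, with which handling, vaccine, drench, feed and haemoglobin share all moved. The count of called genes, 1145, was 1182 with RLE size factors and 1251 with limma-voom, and it moved by over 1.5 times to 2198 with DESeq2, 529 at an adjusted p below 0.05, 464 with no replicate block (without pairing by animal) and 2595 in a fit of all 59 healthy libraries. It was 2 in AAC, 5 in COMBO and 0 in INR animals alone, where fewer samples entered, 382 without animals 6 and 50 together, and 6 with the haemoglobin share as a covariate. Leaving out single animals gave 634 to 3224 calls, and the cause of the rise without COMBO 3 was not tested. Genes whose change differed between supplements numbered 0 in edgeR, 335 with DESeq2 and 0 to 28 when single animals were left out. Genes whose change differed between BRD and healthy cattle numbered 0 in edgeR, 2 with DESeq2 and 1 with limma-voom, and the cause of these differences between tools was not tested. The difference in total counts lay between -3114481 and -1051822 when single animals were left out. With the haemoglobin share as a covariate, 7 genes named in the text changed sign: HBA to a log2 change of -0.10, HBA1 to -0.15, HBM to -0.21, ALAS2 to -0.60, GYPB to -0.10, ATP5IF1 to -0.18 and IFIT2 to 0.22, and the first 3 are themselves haemoglobin genes. With RLE size factors and with a trended dispersion every gene whose paired test the text gives kept its direction and its side of the threshold, and 92 did with no replicate block, 86 at an adjusted p below 0.05, and 78 without animals 6 and 50. The alternatives without animals 6 and 50 and with the haemoglobin share were chosen after seeing the data.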
